A study of Danio rerio with 13 samples.

Results

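Immediate early genes were followed in zebrafish acute lymphoblastic leukemias (ALL) whose cells had been purified by fluorescence-activated cell sorting. The 10 genes were fosab, fosb, jun, junba, junbb, egr1, ier2b, atf3, dusp1 and btg2, chosen by symbol from the 32105 gene identifiers of the deposited count table. The series holds 13 leukemias from 1 double transgenic line, rag2:hMYC;lck:eGFP, in which the rag2 promoter, active in lymphoid precursors, drives human MYC and the lck promoter, active in lymphocytes, drives eGFP. GFP-positive cells were taken from the whole body, and polyadenylated RNA was sequenced. Every library carries both transgenes and none is a control, so the data describe differences between leukemias. The labels used here give no age, no sex and no time between killing, sorting and lysis, and no library of unsorted cells was analysed here.

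Immediate early genes are transcribed within minutes of a stimulus without new protein synthesis, through factors already present in the cell such as the serum response factor and its partners downstream of MAP kinases. Many of them encode transcription factors, among them the Fos, Jun and ATF proteins that pair to form AP-1, and others encode inhibitors that close the response. Most of these roles are known from mammals. These genes are known to be induced by antigen receptor and growth factor signals in lymphocytes and also by enzymatic dissociation and sorting of tissue.

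Of the 10 symbols, 8 led to a single identifier. The name table gives JUNB to 2 identifiers, ENSDARG00000074378 and ENSDARG00000104773, and does not say which is junba and which is junbb, so they are called JUNB-4378 and JUNB-4773 here. The rule that chose the genes leaves out the hMYC-1 column, whose total was close to the sum of hMYC-10 to hMYC-14 (51808498 against 51478946 counts). In the 5983 genes where that sum was 1 to 9 counts, hMYC-1 held the same count for 53.69% and a lower one for 0.15%. The 10 genes themselves stood at 0.965 times that sum for ier2b to 1.52 times for JUNB-4378. The other 12 libraries held 8166453 to 12297780 counts. The description of each library ends in or contains a letter, c for 6 of these 12 and d for 6, whose meaning the labels do not state. hMYC-1 carries letter c, whereas hMYC-10 to hMYC-14 carry letter d. All 10 genes were among the 13663 that passed the filter on low counts, with at least 110 counts in any library. Together they took 12.6 of every 10000 counts in hMYC-13, the lowest library, 40.6 in the median library and 69.5 in hMYC-5, the highest. Genes are not compared with each other in level, because transcript lengths were not used.

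Levels are log2 CPM, counts scaled to a normalized library total. The Fos genes encode the partners that bind DNA only as dimers with Jun proteins. fosab (ENSDARG00000031683), the zebrafish c-fos gene, had a lowest level of 6.84 in hMYC-13, a median of 9.14 and a highest level of 9.72 in hMYC-6. Libraries hMYC-13, hMYC-10 and hMYC-2 lay lowest, and 7 libraries lay together above 9. fosb (ENSDARG00000055751), a second Fos partner, ran from 5.27 in hMYC-13 through a median of 7.89 to 9.07 in hMYC-12. Its highest library was 13.95 times its lowest, against 7.35 times for fosab.

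The Jun genes encode the other partner in AP-1. jun (ENSDARG00000043531), the c-Jun gene, ran from 5.81 in hMYC-13 through a median of 8.25 to 9.55 in hMYC-4. JUNB-4773 ran from 6.28 in hMYC-13 through a median of 7.82 to 8.84 in hMYC-4, the narrowest range of the 10 genes at 5.92-fold. JUNB-4378 fell into separate sets of libraries. It lay between 4.91 and 5.25 in hMYC-9, hMYC-10, hMYC-11 and hMYC-13, all of letter d, and between 7.06 and 8.49 in the other 8 libraries, 2 of which, hMYC-12 and hMYC-14, are also of letter d. The gap took 0.507 of its range. Of the low libraries, hMYC-9, hMYC-10 and hMYC-11 also had the highest T minus B scores, at 5.32, 5.18 and 5.67, and hMYC-13 was at 2.35. That score, of T cell against B cell genes, is defined below. atf3 (ENSDARG00000007823) encodes a stress-induced AP-1 family protein that often represses its targets. Its level was 3.50 in hMYC-11, and in the other 11 libraries it ran from 5.08 to 7.28, with the highest value in hMYC-2. In hMYC-13, where 7 of the 10 genes had their lowest level, atf3 was second highest at 6.80.

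egr1 (ENSDARG00000037421), a zinc finger transcription factor and a direct target of the serum response factor, had the widest range. Its level was 7.15 in hMYC-10, 9.64 at the median and 11.31 in hMYC-5, which is a 17.97-fold span. ier2b (ENSDARG00000086881), an immediate early response gene, ran from 6.35 in hMYC-13 through 7.99 to 9.57 in hMYC-6. Here hMYC-6 stood above all others and hMYC-10 lay next to hMYC-13 at the bottom. dusp1 (ENSDARG00000100515) encodes a phosphatase that switches off MAP kinases. It ran from 6.92 in hMYC-10 through 8.95 to 10.52 in hMYC-14, and hMYC-12 and hMYC-14 lay above every library of letter c. btg2 (ENSDARG00000020298), an antiproliferative gene that is also a target of p53, ran from 7.84 in hMYC-13 through 8.89 to 10.70 in hMYC-5.

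**Figure D1:**
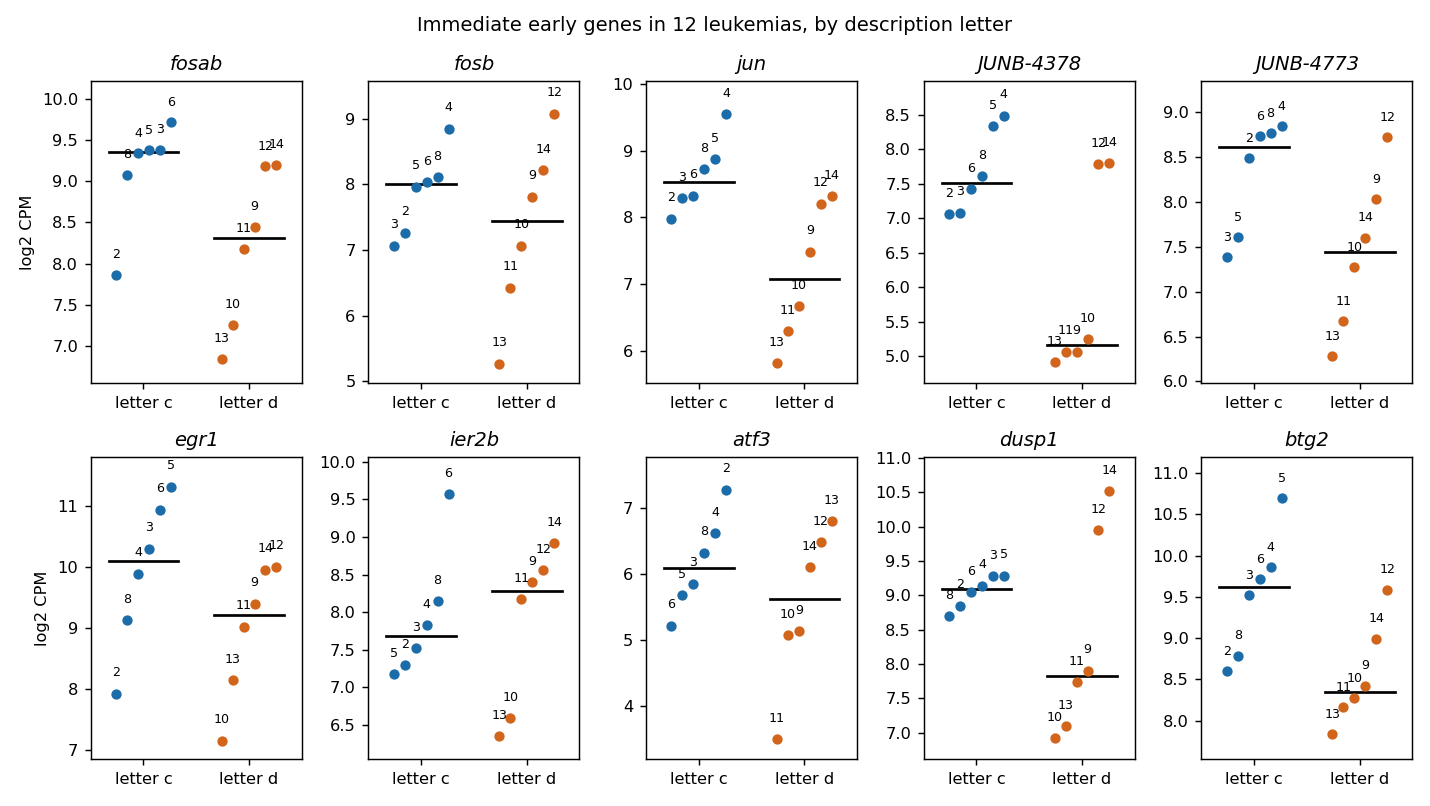
Level of each gene in log2 CPM (vertical axis) in the 6 libraries of letter c and the 6 of letter d; points are libraries with their title number and bars are medians. The letters overlap in each panel, and JUNB-4378 is split into 4 low libraries of letter d (4.91 to 5.25) and 8 higher ones.

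The SD of log2 CPM over the 12 libraries was 0.843 for btg2 and 1.36 for JUNB-4378, the lowest and highest of the 10 genes. The median over the 10 genes was 1.03, beside 0.551 over all genes tested. All 10 SDs lay above that median, as 50% of genes do by definition, at percentiles 68.7 to 84.0. The biological coefficient of variation of edgeR, which allows for counting noise, lay at percentiles 65.3 to 79.9 of all genes tested. It was above the fitted trend at that expression for 10 of 10, for JUNB-4773 by little (0.55 against 0.521). The share of all genes above their trend is not given here. The same few libraries were low for most of the genes. hMYC-13 held the lowest level of 7 genes and was among the 3 lowest for 9, hMYC-10 was among the 3 lowest for 8 and hMYC-11 for 7. At the other end, hMYC-4 and hMYC-5 were each among the 3 highest for 6 genes. hMYC-4 was highest for jun, JUNB-4378 and JUNB-4773, and hMYC-5 for egr1 and btg2.

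**Figure D2:**
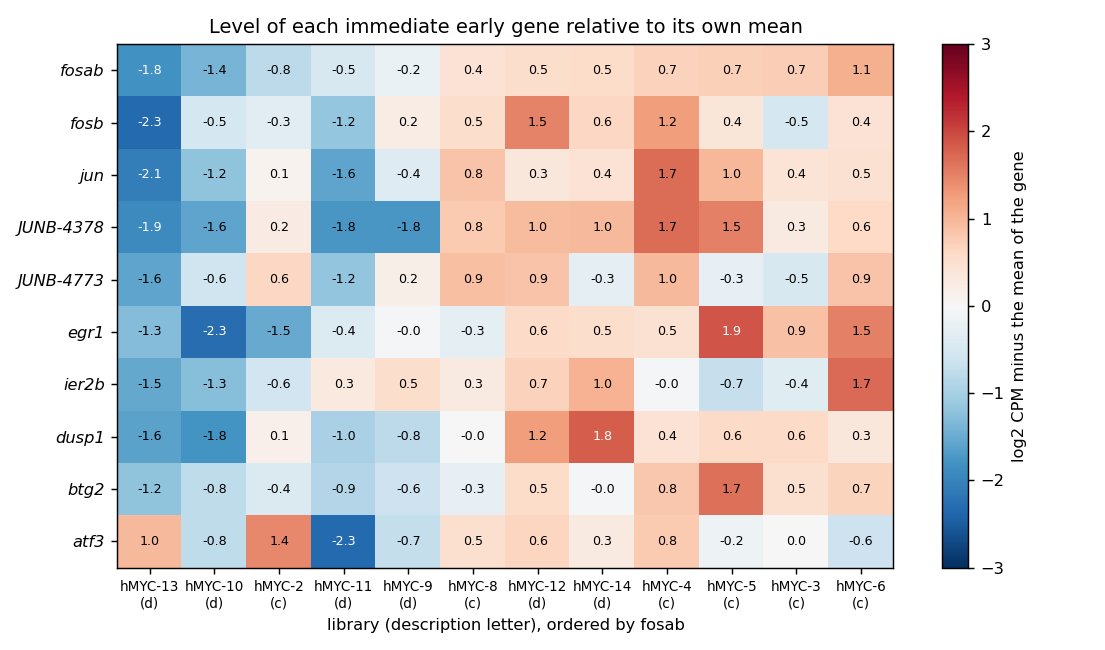
Log2 CPM of each gene minus its mean over 12 libraries (colour and printed value), with libraries ordered by fosab from left to right and atf3 in the last row. The rows above atf3 are mostly below their mean in hMYC-13 and hMYC-10 and above it toward hMYC-6, whereas atf3 is 1.0 above its mean in hMYC-13.

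The genes were then related to each other. In the 8 genes without a gap in their level, all 28 pairs had a positive Pearson's r over 12 libraries, with a median of 0.692, and 13 pairs reached 0.7. The highest r was 0.892 for fosab and egr1 and the lowest 0.29 for ier2b and btg2. Within letter c the median r of these pairs was 0.334, and within letter d it was 0.868. Of all genes, 0.534% (with ier2b) to 6.13% (with btg2) reached an r of 0.7 with 1 of these 8 genes. The median r of all genes ran from -0.017 with dusp1 to 0.032 with JUNB-4773. The 28 pairs leave out JUNB-4378, whose r was positive with 9 of the 9 others. They also leave out atf3, whose r was positive with 6 of 9 and -0.241 with ier2b. The pairs share libraries and normalization, and genes of 1 library are not independent.

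fosab and egr1 gave a Pearson's r of 0.892 (permutation p = 6e-05, 0.159 adjusted over all genes with Benjamini-Hochberg) and a Spearman's rho of 0.923 (permutation p = 8e-05, adjusted 0.173). Their r was 0.869 without hMYC-10 and hMYC-13, 0.889 within letter c and 0.909 within letter d. For fosab and jun r was 0.844 (permutation p = 0.00079, adjusted 0.233) and rho 0.783 (permutation p = 0.00385, adjusted 0.212). That r was 0.663 without the same pair of libraries, 0.446 within letter c and 0.908 within letter d. For fosab and btg2 r was 0.824 and rho 0.874 (permutation p = 0.00092 and 0.00049, adjusted 0.233 and 0.183), with r of 0.771 without those libraries. For fosab and ier2b r was 0.707 (permutation p = 0.0101, adjusted 0.285), rho was 0.49 (permutation p = 0.11), and r without hMYC-10 and hMYC-13 was 0.335. Those libraries are lowest in fosab, so leaving them out also narrows its range. Within letter c this r was 0.506, and within letter d, which holds both, 0.967. The relation of fosab to JUNB-4773 went from 0.616 (permutation p = 0.0333, adjusted 0.369) to 0.268 without hMYC-10 and hMYC-13. It was -0.143 within letter c and 0.762 within letter d. An r with fosab of at least 0.7 was reached by 2.23% of all genes, and by fosb, jun, JUNB-4378, egr1, ier2b, dusp1 and btg2.

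The level of fosab was also fitted as a covariate in the quasi-likelihood F test of edgeR. At an adjusted p under 0.05, 0 of 13662 genes were called (0%), and 1936 had an unadjusted p under 0.05. Of the 9 other immediate early genes 0 were called, and 8 were at an unadjusted p under 0.05 with higher values where fosab was higher, against 7.99% of all genes in that direction. The change per log2 unit of fosab was 1.16 ± 0.19 (SE) for egr1, 1.15 ± 0.27 for JUNB-4378 and 1.01 ± 0.21 for jun, with adjusted p of 0.112, 0.211 and 0.189 in edgeR. The others had slopes of 0.98 for dusp1, 0.87 for fosb, 0.80 for ier2b, 0.78 for btg2 and 0.56 for JUNB-4773. atf3 had a slope of -0.17 ± 0.28, with an unadjusted p of 0.561 in edgeR. With DESeq2 in place of edgeR 661 genes were called, 3.07% of genes being higher with fosab, and these included 7 of the 9, all but JUNB-4773 and atf3. Without hMYC-10 and hMYC-13, 4 of the 9 were at an unadjusted p under 0.05 (jun, JUNB-4378, egr1 and btg2), against 6.82% of all genes that were so and higher.

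Within the 8 libraries above the gap of JUNB-4378, its r with jun was 0.828 (exact permutation p = 0.00689, not adjusted) and rho 0.738 (exact permutation p = 0.0458). Its r with fosab in those libraries was 0.408 (exact permutation p = 0.36) and rho 0.143 (exact permutation p = 0.752). For atf3, r with fosab in the 11 libraries other than hMYC-11 was -0.187 (permutation p = 0.577) and rho -0.245 (permutation p = 0.469). Within letter c, atf3 and fosab gave an r of -0.869 (exact permutation p = 0.0111, not adjusted), and within letter d 0.028. The slopes of the 9 genes on fosab were compared between letters with an interaction term in edgeR. This term was called for 0 of the 9 genes and 0 of 13662 in all, of which 1758 had an unadjusted p under 0.05. It was lowest in adjusted p for dusp1, at 0.262, and was 0.575 for atf3.

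**Figure D3:**
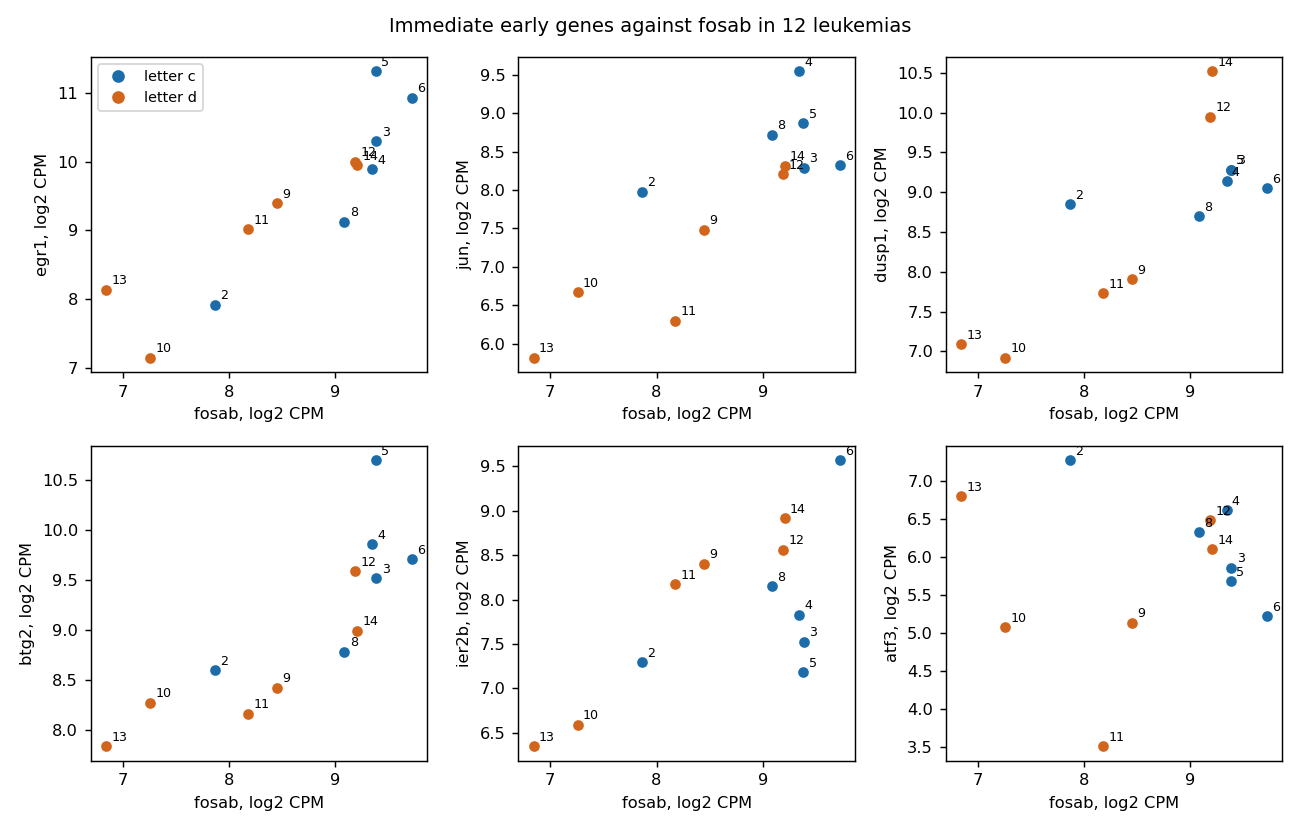
Level of 6 immediate early genes (vertical axes, log2 CPM) against fosab (horizontal axes, log2 CPM) in 12 libraries, numbered by title and coloured by letter. egr1, jun, dusp1 and btg2 are low in hMYC-10 and hMYC-13 where fosab is low; atf3 is second lowest in hMYC-10 and second highest in hMYC-13.

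A wider list of 46 immediate early symbols, of which 35 were matched and 30 tested, gave a comparison outside the 10 genes. With fosab, 15 of the 30 were at an unadjusted p under 0.05 and higher, 0 were lower, and 0 were called by edgeR. The median slope was 0.743, beside -0.0112 over all genes. The 15 included egr3 at 1.65 ± 0.40 and egr2b at 1.48 ± 0.46, relatives of egr1, dusp5 at 1.49 ± 0.47, a nuclear phosphatase of ERK, and nr4a1 at 0.65 ± 0.14, an orphan nuclear receptor induced by antigen receptor signals. The count was 12 without hMYC-4 and 18 without hMYC-2, and 7 without hMYC-10 and hMYC-13 together. It was 9 with the T minus B score, defined below in the comparison by cell type, as a covariate.

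Lists of other responses were set beside it. Of 10 MAP kinase feedback genes 1 was at an unadjusted p under 0.05 with fosab, spry2, an inhibitor of receptor tyrosine kinase signalling, at 2.30 ± 0.61. Of 8 NF-kB feedback genes there were 0, and of 13 genes of the integrated stress response 4, atf5a, atf5b, sesn2 and psat1, all lower where fosab was higher. Of 11 heat shock genes dnajb1b was higher, and hspd1 and hspe1, which encode the mitochondrial chaperonin, were lower. Of 10 p53 targets 2 were higher and 1 lower, and of 11 upstream kinases and factors map2k1 was higher. None of these passed the adjusted threshold in edgeR. Across all 13662 genes, 1092 were higher and 844 lower with fosab at the unadjusted threshold. Counts of 0 or 1 in lists of this size lie near those shares.

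The same fit was run with each of the other genes in place of fosab, in the same libraries. With JUNB-4378, 309 genes were called by edgeR, and 1.83% of genes were called and higher with it. Among them were jun (0.73 ± 0.10 per log2 unit, adjusted p = 0.011), dusp1 (0.72 ± 0.14, adjusted p = 0.0279) and btg2 (0.56 ± 0.10, adjusted p = 0.0234). Of the wider list of 30, 9 rose with JUNB-4378 in edgeR, fosaa, fosl2, egr2a, egr2b, egr3, nr4a3, dusp2, dusp4 and dusp5. The largest of these slopes was that of dusp5, at 1.37 ± 0.18. From the other lists the MAP kinase feedback genes spry2 (1.88 ± 0.26, adjusted p = 0.011) and etv5b (1.69 ± 0.24, adjusted p = 0.0125) rose too in edgeR. So did, in edgeR, the NF-kB feedback genes nfkbiab (0.44 ± 0.09, adjusted p = 0.0353) and nfkbiz (1.09 ± 0.25, adjusted p = 0.0429), and the T cell costimulatory receptor gene cd28 (adjusted p = 0.0445). Markers moved beside them: 5 of 5 epithelial genes and 7 of 13 B cell genes were higher with JUNB-4378 at an unadjusted p under 0.05. Of all 13662 genes, 1860 were so and higher. Of the T cell genes, cd28, cd247l, lcp2b and tox were also higher at that threshold. The other T cell genes did not reach it, and most of them, lck, gata3 and runx3 included, had negative slopes. The part of the markers in the slopes of other genes on JUNB-4378 was not tested.

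Within the 8 libraries above the gap, with fewer samples, 0 genes were called by edgeR, and 522 had an unadjusted p under 0.05. The slope of jun there was 0.81 ± 0.22 and that of btg2 0.83 ± 0.36, not smaller than over 12 libraries, whereas that of dusp1 was 0.29 ± 0.49. In those libraries 0 of 5 epithelial and 0 of 13 B cell genes were at an unadjusted p under 0.05. Of all 13662 genes, 205 were so and higher there, against 1860 over 12 libraries. With so few genes past that threshold, counts of 0 cannot show whether the markers still moved with JUNB-4378.

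With btg2 in place of fosab, 359 genes were called by edgeR, and 2.03% of genes were called and higher. fosab (0.90 ± 0.20, adjusted p = 0.0423), jun (1.08 ± 0.25, adjusted p = 0.0467), JUNB-4378 (1.34 ± 0.29, adjusted p = 0.0407) and egr1 (1.17 ± 0.22, adjusted p = 0.029) were among them. Of the wider list fosl2, egr2a, egr2b, egr3, dusp2 and dusp5 rose with btg2 in edgeR, egr3 by 1.97 ± 0.20. spry2 and map2k1 rose as well, and atf5a fell. B cell genes moved beside btg2: 11 of 13 were higher with it at an unadjusted p under 0.05, of which spi1b, a gene also used by myeloid cells, was called (2.69 ± 0.63, adjusted p = 0.0449 in edgeR). Of all 13662 genes, 1793 were higher and 1421 lower at that unadjusted threshold. Of 18 T cell genes 4 were higher at it (cd247l, lcp2b, tox and cd28) and 5 lower (lck, zap70, gata3, bcl11ba and runx3). With jun in its place a single gene was called, JUNB-4378 (1.13 ± 0.14, adjusted p = 0.0403 in edgeR), which is 0.00732% of genes. With fosb, JUNB-4773, egr1 or dusp1 in its place 0 genes were called by edgeR, and 1174, 1730, 1925 and 1617 had an unadjusted p under 0.05.

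atf3 stood beside other genes. Of the 9 other immediate early genes 0 were at an unadjusted p under 0.05 with atf3 in edgeR, against 8.45% of all genes that were so and higher. Of the wider list 3 of 30 were, cebpb, mcl1a and irf1b. Of 8 NF-kB feedback genes 8 were, all higher, with slopes from 0.44 ± 0.16 for nfkbiab to 1.41 ± 0.40 for nfkbiz and 0.97 ± 0.21 for tnfaip3, the ubiquitin-editing enzyme A20. Their adjusted p in edgeR ran from 0.185 to 0.366, so none was called. Of 13 genes of the integrated stress response, the pathway in which atf3 lies downstream of ATF4, 7 were, all higher: atf5a, atf5b, ddit3, chac1, sesn2, herpud1 and psat1. ddit3, which encodes the CHOP factor, had a slope of 0.59 ± 0.14 (adjusted p = 0.186 in edgeR). Without hMYC-11, the library with the lowest atf3, 6 of 8 and 4 of 13 were at an unadjusted p under 0.05. Of all 13662 genes, 798 were so and higher in that fit, and 448 lower. Of the epithelial genes 2 of 5, krt5 and cdh1, were higher with atf3 at an unadjusted p under 0.05, and 0 of 13 B cell genes were. The NF-kB list was also at 7 of 8 with JUNB-4773, and at 0 of 8 with egr1 or btg2. With JUNB-4773, 816 of 13662 genes were at that threshold and higher, and 914 lower. With jun, and with JUNB-4378, nfkbiaa, nfkbiab, tnfaip3 and nfkbiz were higher at that unadjusted threshold. In all, 1715 genes were so with jun and 1860 with JUNB-4378. Of the NF-kB genes, nfkbiab and nfkbiz were called with JUNB-4378 in edgeR, as given above, so the NF-kB relation is not particular to atf3.

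**Figure D4:**
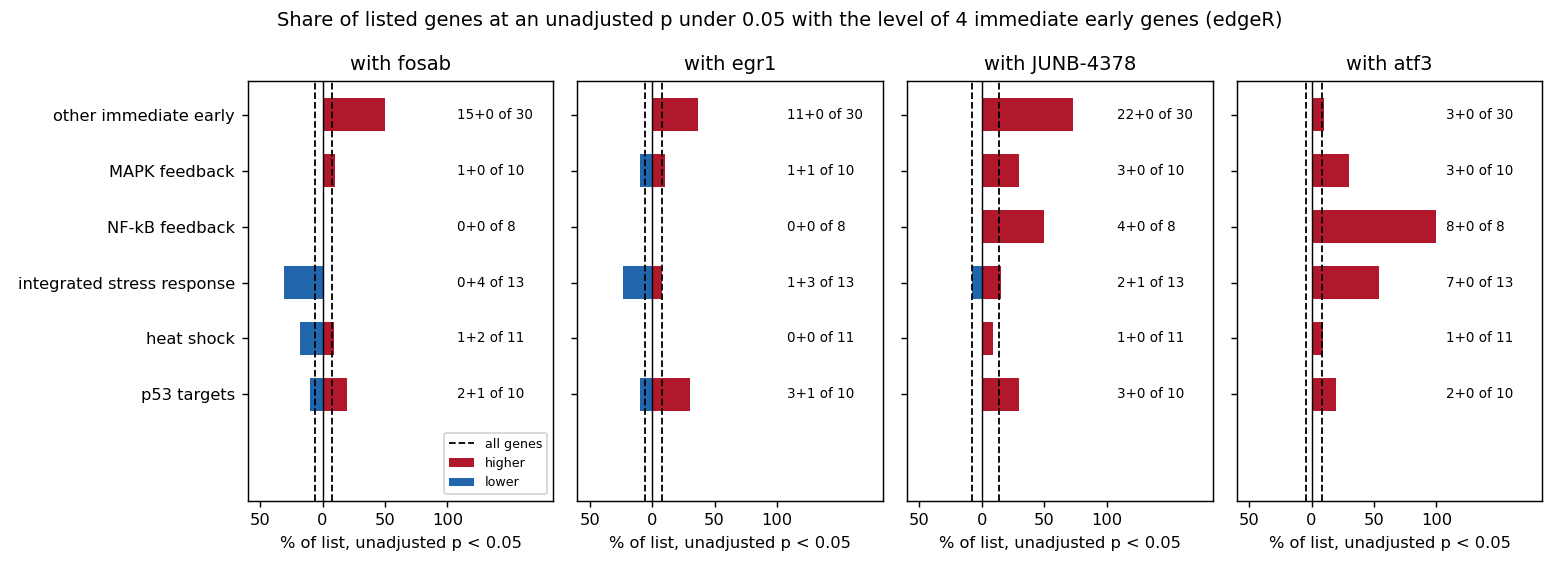
Percent of the tested genes of 6 lists (horizontal axis) at an unadjusted p under 0.05 in edgeR with the level of fosab, egr1, JUNB-4378 and atf3, to the right of 0 where higher and to the left where lower; the printed counts give higher plus lower of tested, and dashed lines give all genes. The wider immediate early list reaches 15 of 30 with fosab and 3 of 30 with atf3, and the NF-kB list 0 of 8 and 8 of 8.

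The description letter was compared next, as a possible batch. It partly goes together with cell type. The libraries with a T minus B score below 0, hMYC-3, hMYC-4 and hMYC-5, are all of letter c. Within letter d the score ran from 1.49 in hMYC-12 to 5.67 in hMYC-11. fosab ran from 7.86 through 9.36 to 9.72 in letter c and from 6.84 through 8.31 to 9.20 in letter d (lowest, median and highest). jun ran from 7.98 through 8.53 to 9.55 in c and from 5.81 through 7.08 to 8.32 in d. btg2 ran from 8.60 through 9.61 to 10.70 in c and from 7.84 through 8.35 to 9.59 in d. For jun 4 libraries of letter d, and for btg2 4, lay below every library of letter c. The letters overlapped for 10 of 10 genes. As only 2.23% of all genes had letters that did not overlap, this does not set the 10 apart.

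In edgeR 47 of 13663 genes differed between the letters (0.344%), and 0 of the 10 were among them. At an unadjusted p under 0.05 jun was lower in letter d by an estimate of -1.29 ± 0.44 log2 units (adjusted p = 0.152) and btg2 by -1.03 ± 0.39 (adjusted p = 0.18), where 11.8% of genes were so and lower. DESeq2 called jun (-1.30 ± 0.45, adjusted p = 0.0455), where it called and found lower 5.2% of genes. The estimates of all 10 were negative with TMM factors, with a median of -0.77 beside -0.0247 over all genes, but those of ier2b and dusp1 were 0.00 and 0.07 with library totals. That scaling moved the median of all genes to 0.0985, and the split of called genes from 15 higher and 32 lower to 18 and 21. With the T minus B score as a covariate dusp1 was at 0.28 and fosb at 0.01.

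The relation to cell type was tested with a score, the mean log2 CPM of 18 T cell genes minus that of 13 B cell genes. It ran from -3.24 in hMYC-5 to 5.67 in hMYC-11, with hMYC-3 and hMYC-4 also below 0. Genes of both lists were counted in every library: the T list summed to 903.4 to 11240 CPM and the B list to 346.2 to 4372. The B sum includes bcl6aa, with a median of 3001 counts, beside 60 for pax5, 67 for cd79b and 31 for btk. Single genes fell as low as 0 counts for pax5, 1 for btk and, of the T list, 0 for cd247l. The B sum of a library thus does not by itself show B cells in it. In bulk libraries fewer cells of a type and less RNA per cell cannot be told apart.

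btg2 fell as the score rose, by -0.22 ± 0.05 log2 units per unit of score in edgeR (adjusted p = 0.00779), and was the 1 gene called of the 10. In all, 7.95% of genes were called and lower with the score. btg2 was highest in hMYC-5 at 10.70, where the score was lowest, and was 8.17 in hMYC-11, where the score was highest. Its r with the score was -0.78 (permutation p = 0.00233, adjusted 0.0256) and its rho -0.727 (permutation p = 0.0102, adjusted 0.0994). The r was -0.646 without hMYC-3 and hMYC-5, -0.803 within letter c (exact permutation p = 0.0542) and -0.45 within letter d (exact permutation p = 0.374). The call was lost in edgeR without hMYC-5 (adjusted p = 0.106), with the letter as a covariate (-0.19, adjusted p = 0.0537) and with the T score alone (adjusted p = 0.227). It held with the B score alone (0.29 per unit, adjusted p = 0.0128). Over the single libraries left out, the adjusted p ran from 0.00248 to 0.106.

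egr1 had a slope of -0.21 ± 0.08 (adjusted p = 0.122), JUNB-4378 -0.23 ± 0.10 (adjusted p = 0.159) and jun -0.18 ± 0.08 (adjusted p = 0.165) in edgeR. egr1 passed the threshold without hMYC-6, at an adjusted p of 0.0445. ier2b was the one gene with a positive slope, 0.10 ± 0.09. Whether btg2 differs from the other genes in its slope was not tested.

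**Figure D5:**
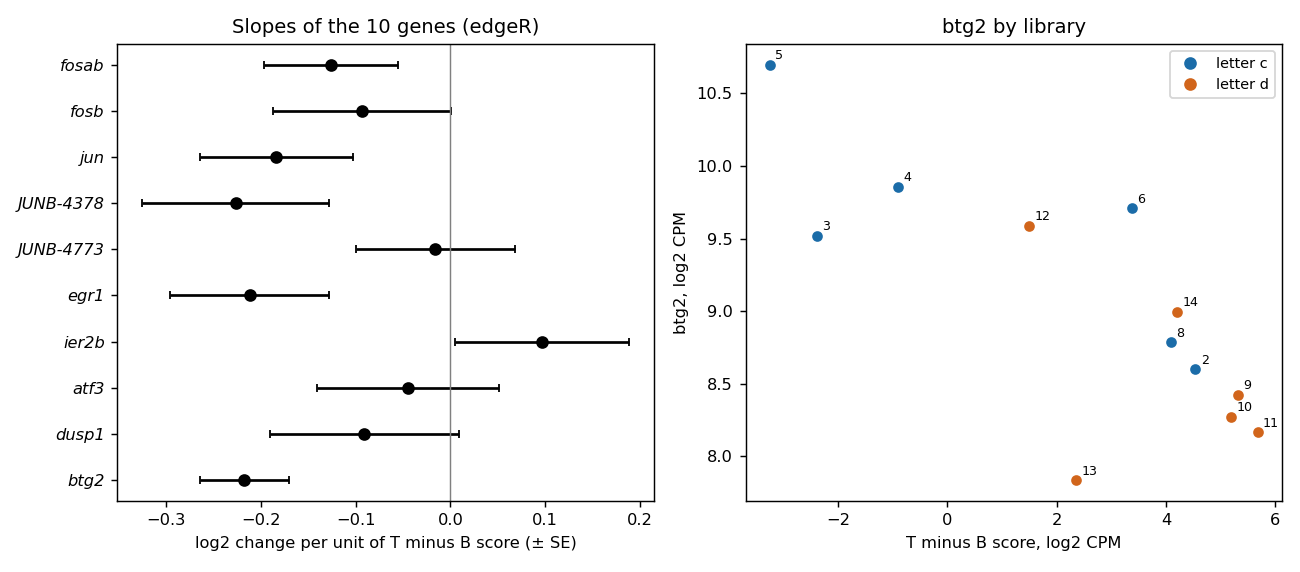
Left, log2 change of each of the 10 genes per unit of the T minus B score (points, edgeR) with its SE (bars). Right, btg2 in log2 CPM against the score in each library, numbered by title and coloured by letter; btg2 is at 10.70 in hMYC-5 and at 8.17 in hMYC-11.

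Of all 13663 genes, 1086 were called and lower with the score in edgeR, and 749 called and higher. Of the wider list of 30, 7 fell and 1 rose at the same threshold. Those that fell were errfi1a (-0.72 ± 0.11), klf2a (-0.56 ± 0.05), klf2b (-0.54 ± 0.09), egr2b (-0.54 ± 0.09), egr3 (-0.49 ± 0.08), dusp5 (-0.45 ± 0.12) and dusp2 (-0.43 ± 0.10). klf2a and klf2b encode Kruppel-like factors linked in mice to lymphocyte quiescence and trafficking, and errfi1a an inhibitor of the EGF receptor. The gene that rose was mcl1b (0.15 ± 0.04), a survival gene of the Bcl-2 family. Of the MAP kinase feedback genes spry1 (-0.49 ± 0.12) and spry2 (-0.58 ± 0.17) fell, and spred1 (0.64 ± 0.14) and spred2a (0.52 ± 0.16) rose. Of the upstream genes map2k1 fell and mapk9 rose, and of the stress response genes xbp1, a factor of the unfolded protein response and of plasma cells, fell (-0.42 ± 0.09). Among p53 targets mdm2 and bbc3 fell and rrm2b rose, and 0 of 8 NF-kB genes were called or at an unadjusted p under 0.05. At that unadjusted threshold 1836 of all genes were higher with the score and 1864 lower. The wider list ranged from 5 that fell without hMYC-5 to 8 without hMYC-2.

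Lists of markers of other cells and library measures are set beside fosab, 13 relations in all, whose p-values are not adjusted. The B list summed to 416.8 to 4372 CPM in letter c and 346.2 to 1510 in letter d, and its r with fosab was 0.581 (permutation p = 0.0454), with rho 0.699. Of 13 B genes tested 5 were at an unadjusted p under 0.05 with fosab and higher, and 11 without hMYC-10 and hMYC-13. With the T minus B score as a covariate the slopes on fosab were 1.01 for egr1, 0.90 for jun, 0.52 for btg2 and 1.06 for ier2b, and ier2b alone was called (adjusted p = 0.0159 in edgeR). The myeloid list, of which 8 of 12 symbols were matched, summed to 55.28 to 874.6 CPM in c and 63.99 to 437.1 in d. Of its 7 tested genes lyz and npsn, genes expressed in neutrophils, were higher with fosab at an unadjusted p under 0.05. Their r with fosab was 0.854 and 0.811, and that of the other tested genes ran from -0.207 for cebpa to 0.345 for csf3r. ncf1, with an r of 0.033, reached 818 CPM in hMYC-5, where the whole list summed to 859.29. With the myeloid score as a covariate 8 of the 9 genes were at an unadjusted p under 0.05 with fosab, against 4.75% of all genes that were so and higher. That score is the mean of all 7 tested genes, most with a low r with fosab. It thus does not adjust for lyz and npsn as such, and their part in these slopes was not tested.

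The epithelial list summed to 14.38 to 59.49 CPM in c and 5.39 to 115.7 in d, with 1 of 5 tested genes, krt8, higher with fosab at an unadjusted p under 0.05. The erythroid list summed to 17.28 to 47.04 in c and 3.22 to 158.3 in d, with hbaa1 of 4 higher. Exocrine pancreas genes summed to 0.52 to 66.76 in c and 0.43 to 29.55 in d, and 0 of 2 passed that threshold. Thrombocyte, endothelial and muscle genes summed to at most 5.67, 1.05 and 0.54 CPM, and none of them passed the filter on low counts. No matched marker was at 0 in all libraries. The r of a list's level with fosab was 0.582 for thrombocyte genes (permutation p = 0.0458), 0.56 for erythroid genes (permutation p = 0.0585) and 0.556 for epithelial genes (permutation p = 0.0621). Their rho was 0.385, 0.35 and 0.413. Within letter d these r were 0.87, 0.866 and 0.767, within letter c -0.085, -0.345 and -0.309, and without hMYC-10 and hMYC-13 0.238, 0.099 and 0.193. For the T list r was -0.476 and rho -0.643 (permutation p of r = 0.105), and the r of the myeloid, endothelial, muscle and pancreas lists lay between 0.258 and 0.426 (permutation p from 0.157 to 0.416). The myeloid sum does not stand for lyz and npsn, whose higher r is given above. The r of fosab was 0.143 with total counts (permutation p = 0.657) and 0.266 with the mitochondrial share (permutation p = 0.413). It was 0.601 with the number of genes with a count (permutation p = 0.0399), and rho was 0.573. That r was 0.698 within letter c, 0.486 within letter d and 0.714 without hMYC-10 and hMYC-13. For total counts r was 0.716 within letter c, -0.421 within letter d and 0.39 without those libraries. The part of these measures in the levels of fosab was not tested beyond the covariates given.

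Among the 10 genes outside the set with the highest r with fosab over 12 libraries were csf1rb (0.941), ENSDARG00000059741 (0.938), GPR84 (0.934), slc6a22.2 (0.918), mideasa (0.867), PATJ (0.858), SWT1 (0.854) and ercc5 (0.853). csf1rb, a receptor of the macrophage growth factor, had 0 to 38 counts and GPR84, a receptor of myeloid cells, 0 to 27. With the mean log2 CPM of the 10 genes the highest were ENSDARG00000092455 (0.943), GPR84 (0.939), si:rp71-46j2.7 (0.936), PRDM1 (0.908), slc6a22.2 (0.906), nitr4a (0.905), tnfrsf1b (0.899), csf1rb (0.896), ubb (0.894) and SPRY2 (0.892). These were picked as the highest of all genes, and the values describe the 12 libraries.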

How the data were processed

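The authors deposited 1 table of raw read counts per Ensembl gene identifier. Per the submitters' processing notes, the build was GRCz10 and the tools were bcl2fastq, STAR, Picard and featureCounts; their settings, the gene models and whether counting used strand are not given in the sources used here. Per the labels' protocols a stranded kit was used. Genes that overlap, lie antisense or have close copies thus have uncertain counts. All 13 columns matched a title, 0 columns and 0 rows were left out as unmatched, and symbols came from a name table that covered 81.8% of identifiers, or from RefSeq synonyms.

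Counts of 12 libraries were fitted with edgeR 4.0.16 (R 4.3.3): TMM factors, filterByExpr on the letter, the two-sided quasi-likelihood F test and Benjamini-Hochberg adjustment over all genes at 0.05. DESeq2 1.42.0 was an alternative. The log2 CPM used a prior count of 2. Permutation tests were two-sided, with 100000 resamples, or exact for up to 8 libraries. For levels with a gap of at least 0.4 of their range (JUNB-4378 and atf3) no test of an r over all 12 libraries is reported. The edgeR fits on these levels did use all 12 libraries, across the gap, unless stated. Scripts were tested on simulated data. The members, the lists and the tests were chosen with earlier results of these data known. Genes named are the members, listed genes called in a comparison, and the 10 most like fosab or the mean, some of which are not reported here; listed genes named at an unadjusted p, and those named with another gene in place of fosab, were chosen after their values were seen. Each library is a separate leukemia by its label, and p-values measure the spread between them.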

Additional observations from a re-analysis of the deposited data

Results flagged for a closer look

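fosab in hMYC-2 stood apart from the other libraries of letter c. Its level there was 7.86 log2 CPM, whereas the other 5 lay between 9.08 and 9.72. The gap took 0.656 of the range of the 6 libraries, above the critical value of 0.625 of Dixon's test for 6 values. Each of the 10 genes was tested in both letters, 20 tests in all, of which 1 was past that value; chance gives about 1 in 20. In hMYC-2 egr1 was also the second lowest of the 12 libraries and atf3 the highest. hMYC-2 had the lowest total count, 8166453, and a normalization factor of 0.74. atf3 had 932 counts there and 1326 of 10949792 in hMYC-13, a higher share. Its top rank in hMYC-2 thus rests on the normalization factors. With library totals in place of TMM factors the slopes on fosab were 1.19 for egr1 and 0.94 for jun.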

How the results depend on the processing

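Of 982 values under alternatives 873 kept their direction and side of the threshold, or moved by less than the tolerance. Another 38 reversed. Of the 982, 454 came from alternatives other than leaving out a single library, and 380 of those were kept. The cause of the changes was not tested. The count between letters was 1159 with DESeq2, 7 without a filter and 20 at a mean count of at least 10. It was 10 with the T minus B score as a covariate and 8 to 64 with single libraries left out. With 13 columns it was 1. That last fit adds hMYC-1, of letter c, whose total is close to the sum of libraries of letter d. Its count is thus not a like comparison of the letters. Of the 10 genes 1 was called between letters by DESeq2, and 0 without any single library. The count with the score was 2936 with DESeq2, 2988 without a filter, 249 with the T score alone, and 1033 to 2108 with single libraries left out. Of the 10 genes 0 were called with the letter as a covariate or the T score alone, and 0 to 2 with single libraries left out. The count with fosab was 661 with DESeq2, 23 without a filter, 10 at a mean count of at least 10, 8 with the score as a covariate and 0 to 3 with single libraries left out. Of the 9 other genes 7, 1, 0 and 1 were called, and 0 without any single library. In place of fosab, jun gave 1 call, JUNB-4378 309, ier2b 2, atf3 1 and btg2 359, with 1, 3, 0, 0 and 4 of the 9 other genes. The median r of pairs was 0.334 within letter c, 0.868 within letter d and 0.597 to 0.759 with single libraries left out, and the median SD was 0.897 to 1.08.

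None of the values that reversed had been called. Between letters they were fosb at 0.012 and dusp1 at 0.284 with the score as a covariate, and ier2b at 0.002 and dusp1 at 0.066 with library totals. With the T score alone they were fosb at 0.149, JUNB-4773 at 0.288, atf3 at 0.24 and dusp1 at 0.089. JUNB-4773 was at 0.007 with the myeloid score and 0.042 with the letter as a covariate. With atf3 in place of fosab, egr1 was at -0.217 and ier2b at -0.268; without hMYC-11 these were -0.819 and -0.522, and btg2 was at -0.236. ier2b was at -0.329 with JUNB-4378 in its 8 higher libraries. atf3 was at 0.012 with fosb, 0.138 with jun, 0.207 with JUNB-4378, 0.236 with JUNB-4773 and 0.166 with dusp1. The r of fosab and JUNB-4773 was -0.143 within letter c. With single libraries left out, the letter estimates ran from -0.66 to 0.182 for dusp1, -0.715 to 0.043 for fosb and -0.309 to 0.476 for ier2b. With the score, JUNB-4773 ran from -0.064 to 0.03 and atf3 from -0.118 to 0.005, and atf3 with fosab from -0.317 to 0.015.

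The myeloid score, the interaction, the fits without hMYC-10 and hMYC-13 or hMYC-11, and the fit in 8 libraries were chosen after seeing the data. No paired analysis was possible because the labels put all libraries in 1 group and the letters share no replicate number. The 12 libraries include no control, and the letter and the order of the titles cannot be told apart. Each of the 10 genes had at least 110 counts in any library.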
